A study of Rattus norvegicus with 28 samples.

Results

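Gene expression in the lumbar dorsal horn of adult male rats (Rattus norvegicus) was compared between the left side, that of a hindpaw injured in newborn life, and the right side. The 9 arrays of this comparison were chosen by their sample titles out of the 28 arrays of the series. Of these, 5 were labelled as left and 4 as right dorsal horn, and both groups came from carrageenan-injected animals. Pups had received 1 injection of 0.25% carrageenan, a seaweed polysaccharide that inflames tissue, in 0.9% saline into the plantar left hindpaw on postnatal day 3, at a volume of 1 µl/g. Weaning was on day 21, and the males grew up until day 59. Each array was hybridised with RNA of an injected rat, in channel 1, and RNA of a rat that had received no injection, in channel 2, from the same side of the lumbar cord. The 2 groups of arrays therefore shared the injection, its site, sex and age, and differed in the side from which the tissue of both rats was taken. Dorsal horn of saline-injected rats was not analysed here. The labels do not say whether the arrays of a side came from separate rats, nor whether left and right arrays came from the same rats. What a p-value sets a difference against is thus the spread among these arrays, which can be technical.

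The array held 228 features, which carried symbols of 156 genes. Every value is a log2 ratio of the injected over the uninjected rat, so that 0 stands for equal levels. That direction is the likely one, because the injected rat was channel 1 on every array, but the deposited table does not state it. A left minus right difference is a difference between 2 such ratios. Features are given with their number in the table, since 30 genes had several. The ratios come from bulk tissue, in which fewer cells of a type and less RNA per cell cannot be told apart.

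The dorsal horn receives the sensory fibres of the limb, and the fibres of the left hindpaw end mainly in the left lumbar dorsal horn. Pain signals cross its synapses through glutamate, which acts on AMPA, kainate and NMDA receptor channels, and through peptides such as substance P. Local neurons that release GABA, glycine or opioid peptides, and fibres from the brain stem that release serotonin and noradrenaline, dampen the transfer. Cytokines and neurotrophins released after injury are known to change how strongly these neurons respond. The comparison addresses whether the dorsal horn of the injured side differed from the other side long after the injury.

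The left arrays measured more features than the right arrays, but the counts overlapped. An exact 0 in the table was taken as not measured. By that rule 100, 168, 85, 104 and 65 features had a ratio on left arrays 1 to 5, against 7, 65, 45 and 100 on right arrays 1 to 4. The mean was 104.4 ± 38.7 on the left (SD, n = 5) and 54.25 ± 38.8 on the right (n = 4), a difference of 50.15 (exact two-sided permutation p = 0.111). Right array 1 lay far below the others, and without it the difference was 34.4 (exact permutation p = 0.25). The spread of the ratios differed between arrays as well. Left array 1 had a median absolute ratio of 1.05, while the other left arrays lay between 0.127 and 0.52. Among the 45 features measured on all 5 left arrays, left array 1 held the ratio farthest from 0 in 28. Across features, all 28 pairs of arrays with at least 15 shared features had a positive correlation (Pearson r from 0.024 to 0.563, median 0.321). Rank correlations of these pairs were positive too, from 0.019 to 0.50. Right array 1 measured too few features to enter a pair. The arrays shared the platform, the dyes, the injection, the tissue, sex and age, which cannot be told apart here. The cause of the correlation was not tested. Of markers for other cells, the peptide gene Calca alone was on the array, so ratios could not check the tissue by cell type.

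**Figure D1:**
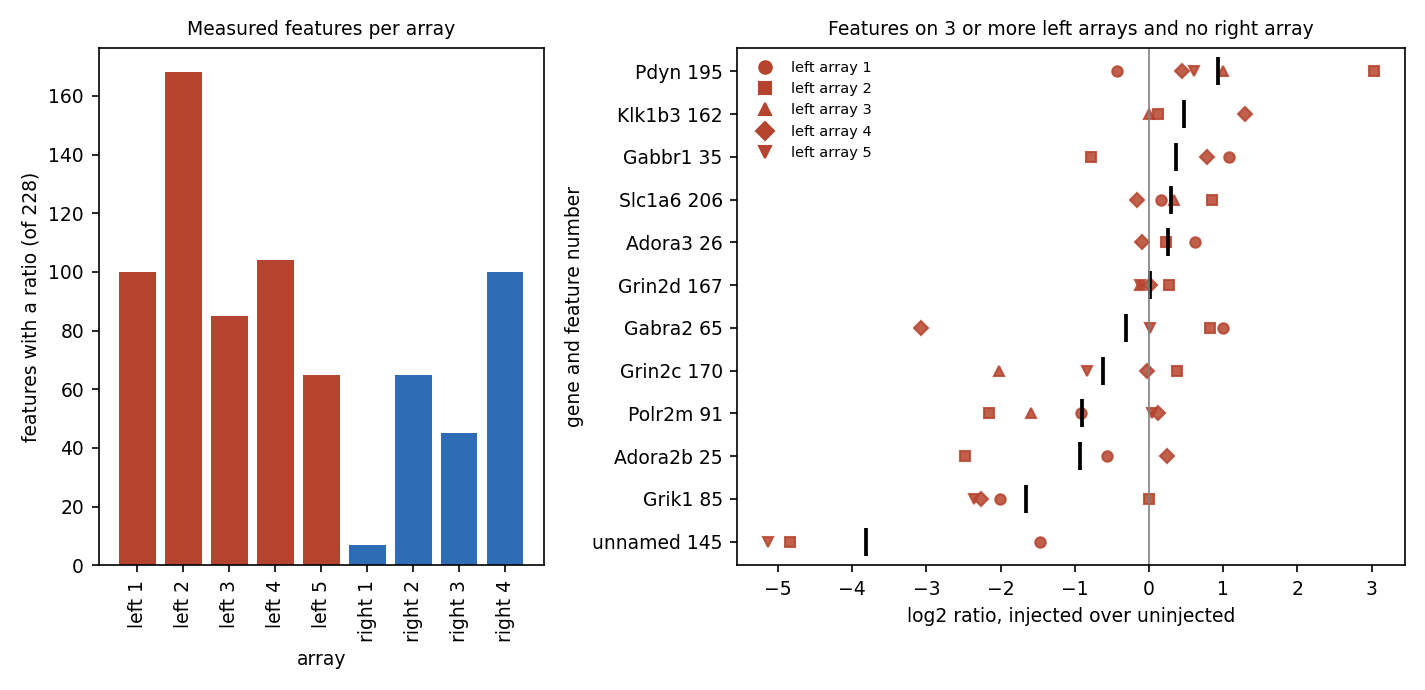
The left panel gives the number of features with a ratio (y axis) on each dorsal horn array (x axis), with red bars for left and blue bars for right arrays; the left arrays span 65 to 168 features, and right array 1 is lowest at 7. The right panel gives the log2 ratio of injected over uninjected rats (x axis) for the 12 features measured on at least 3 left arrays and no right array (y axis), with a marker shape for each left array and a black bar for the mean, which runs from -3.82 for the unnamed feature 145 to 0.93 for Pdyn.

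No feature passed a test of the difference between the sides. Such a test was made for the 29 features with at least 3 measured arrays on each side. With limma, which pools the variance across features, 0 of 29 passed an adjusted p of 0.05 (0%). The smallest adjusted p was 0.854, and no feature (0 of 29) went below 0.05 before adjustment. An exact permutation test run feature by feature called 0 too, with 1 unadjusted p below 0.05 (3.45%). The smallest p that test allows was 0.0159 to 0.1 by feature. A call after adjustment over 29 features would have needed most of them at or near that p. Its 0 calls were thus nearly fixed by the number of arrays. The left minus right difference was above 0 in 17 features (58.6%) and below 0 in 12 (41.4%), with a median of 0.18. The 95% intervals were from 0.68 to 7.50 wide, with a median width of 2.10, and each included 0. At the median width, an estimate of 0 would leave differences of up to 1 log2 unit in either direction inside the interval. Left array 1 gave the ratio farthest from 0 among the left arrays in 22 of these 29 features. Without it 26 features could be tested, 13 of their differences became smaller in size, 9 of them by more than 1.5 times, and 13 became larger, 10 of them by more than 1.5 times. Over these 26 the median size was 0.25 with and 0.24 without that array, 5 differences changed sign, and the signed median went from 0.12 to 0.010.

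**Figure D2:**
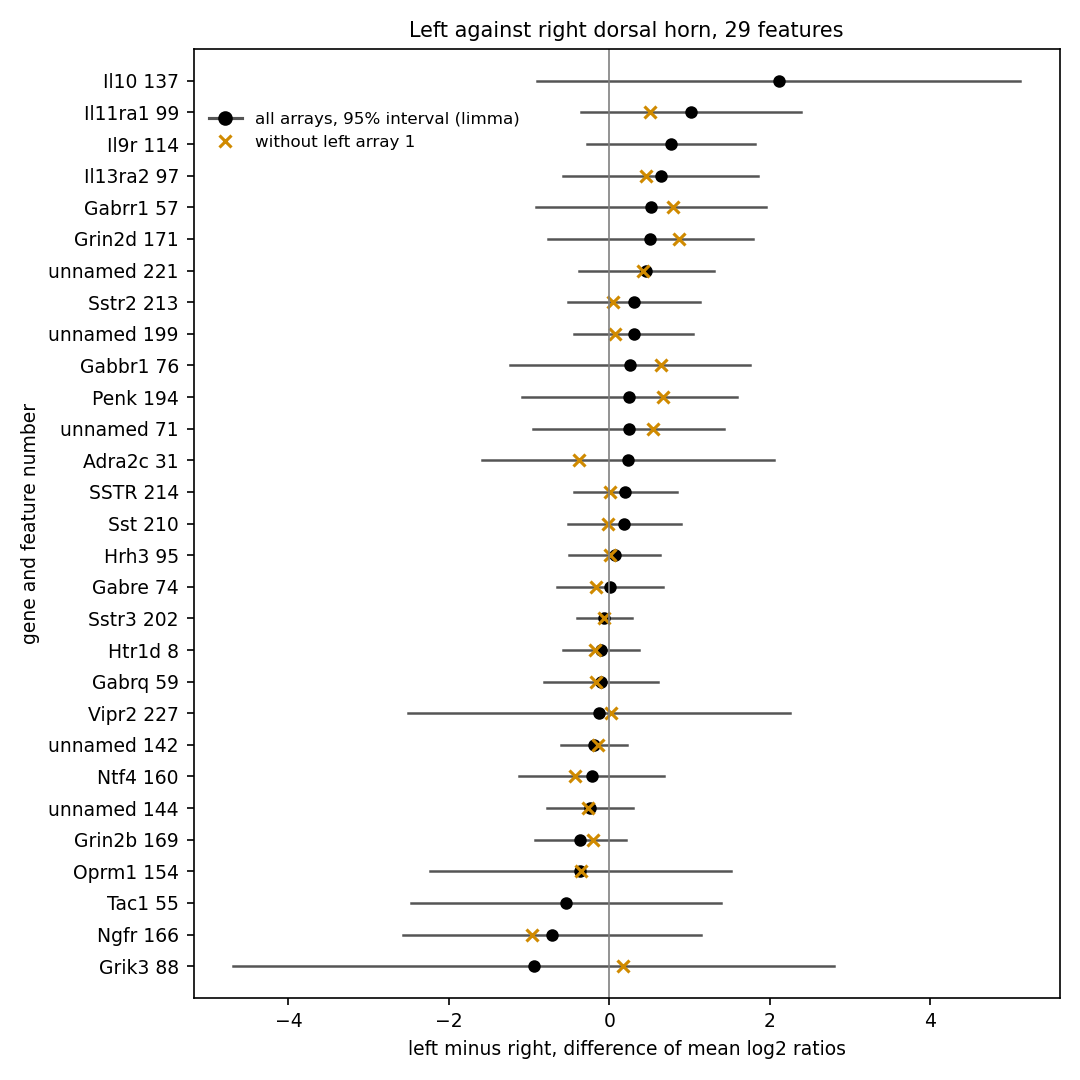
Left minus right difference of the mean log2 ratios (x axis) for each of the 29 features tested (y axis), with black dots for the difference, lines for the 95% interval by limma and orange crosses for the 26 differences that could be computed without left array 1. All 29 intervals include 0, and 13 of the 26 crosses lie closer to 0 than their dots and 13 farther from it.

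Receptors of cytokines, in a list of 20 features of which 12 were measured on any left array and 5 on any right array, gave 3 tested features. Il11ra1, Il9r and Il13ra2, which encode receptor subunits for interleukins 11, 9 and 13, each averaged higher on the left, with a median difference of 0.76 beside 0.18 over all 29 features. All 3 stayed above 0 with other scalings of the arrays, but the median was 0.41 with array weights and 0.55 with equal scaling. Quantile normalization gave 0.74 for these and moved the median over all 29 to 0.003. Il11ra1 (feature 99) was measured at 2.24, 0.51, -0.061 and 0.25 on left arrays 1 to 4 and at -0.13, -0.71 and 0.003 on right arrays 2 to 4. Its 3 highest ratios were left ones, but the sides overlapped, and without left array 1 the difference of 1.01 (95% interval -0.36 to 2.39) became 0.51. Il9r (feature 114) stood at 1.33, -0.16 and -0.096 on left arrays 1, 3 and 4, and at -0.65, 0.16, -0.68 and -0.45 on right arrays 1 to 4. Its high left value was again that of array 1, the other left ratios lay just below 0, and right array 2 lay above them. Its difference was 0.76 (95% interval -0.28 to 1.81), and over the alternatives it ran from 0.37 to 1.51, the latter with quantile normalization. Il13ra2 (feature 97), which binds interleukin 13, gave 0.77, -0.53, 0.073 and 0.57 on left arrays 1 to 4 and -1.34, -0.40 and 0.48 on right arrays 2 to 4. Here left array 1 stood less apart, the sides overlapped over most of their range, and the difference was 0.64 (95% interval -0.57 to 1.86). Without left array 1 only Il11ra1 and Il13ra2 could be tested, both still above 0, with a median of 0.48. A single cytokine was tested, the anti-inflammatory Il10 (feature 137). Its ratios were 4.82, 1.07 and 0.13 on left arrays 1, 2 and 4, and -0.44, 0.17 and -0.058 on right arrays 2 to 4. The left mean rested mostly on array 1, the difference was 2.11 (95% interval -0.90 to 5.12), and the lowest left ratio lay below the highest right one. That difference was 1.21 with quantile normalization, 1.05 with array weights, 0.85 with the replicate number as a block and 0.72 with equal scaling, and it could not be tested without left array 1.

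**Figure D3:**
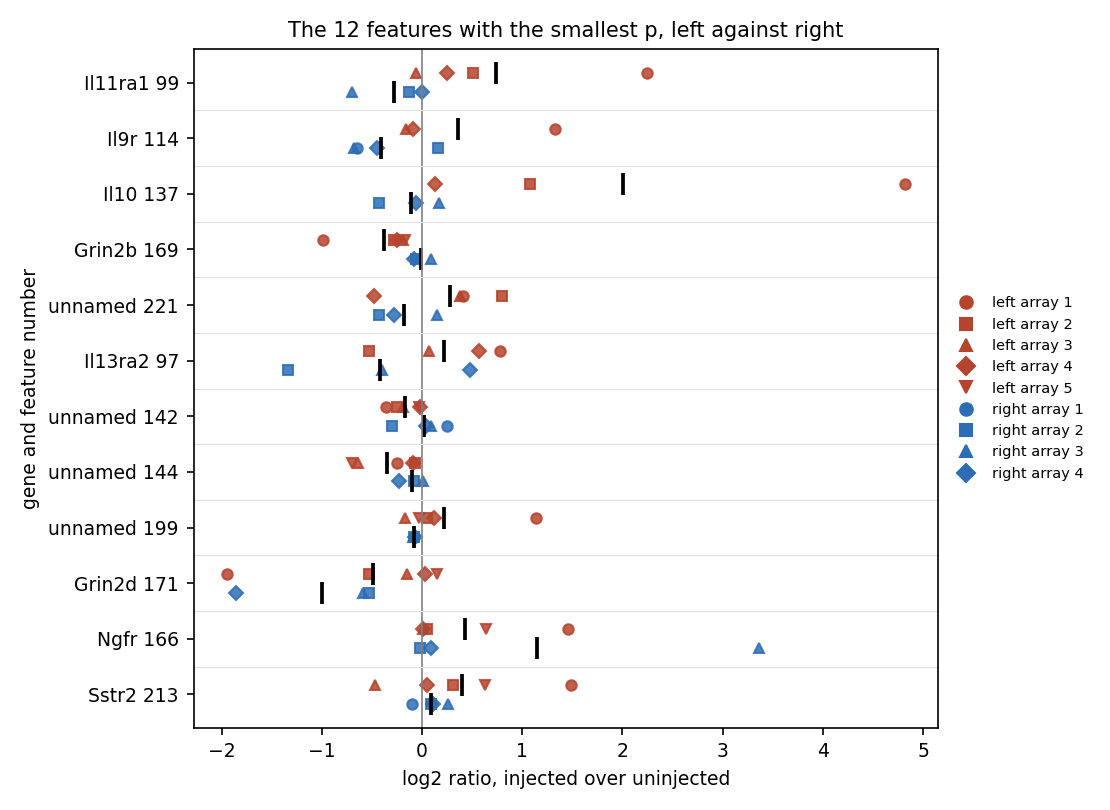
Log2 ratio of injected over uninjected rats (x axis) for the 12 features with the smallest p in the left against right comparison (y axis), with red markers for left arrays, blue for right arrays, shapes for the array number and black bars for the mean of a side. Left array 1 is the highest point of Il11ra1, Il9r and Il10, at 2.24, 1.33 and 4.82, and the red and blue points of Grin2b do not overlap.

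Ionotropic glutamate receptors, the channels that carry fast excitation, gave 3 tested features, of which 1 averaged higher and 2 lower on the left (median difference -0.36). Grin2b (feature 169), a subunit of the NMDA receptor, was measured at -0.99, -0.28, -0.19, -0.25 and -0.17 on left arrays 1 to 5. The right ratios were -0.057, 0.093 and -0.083 on right arrays 2 to 4. Every left ratio lay below every right ratio, which held for this feature alone among the 29 (3.45%). The gap was small: the left array nearest to the right ones lay at -0.17, and the right array nearest to the left ones at -0.083. Its difference was -0.36 (95% interval -0.93 to 0.21, limma adjusted p = 0.854). The exact permutation p of 0.0357 (adjusted 0.863) is the smallest that test allows with 5 and 3 arrays. It restates the lack of overlap and adds nothing to it. Without left array 1 the difference was -0.21. Grin2d (feature 171), another NMDA subunit, had -1.94, -0.53, -0.15, 0.032 and 0.15 on left arrays 1 to 5. Its right ratios of -0.53, -0.59 and -1.86 on right arrays 2 to 4 lay within the range of the left ones, and the difference was 0.51 (95% interval -0.77 to 1.79), or 0.87 without left array 1. For the kainate receptor, the subunit Grik3 (feature 88) was measured at -7.97, -1.18, -3.55, -3.93 and -0.88 on left arrays 1 to 5, against -0.94, -4.22 and -2.52 on right arrays 2 to 4. All of these ratios were below 0, on both sides, and the sides overlapped. Its difference of -0.94 had the widest interval of the 29 features (-4.69 to 2.81), and it turned to 0.17 without left array 1. Without that array the list had 2 features above and 1 below 0.

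**Figure D4:**
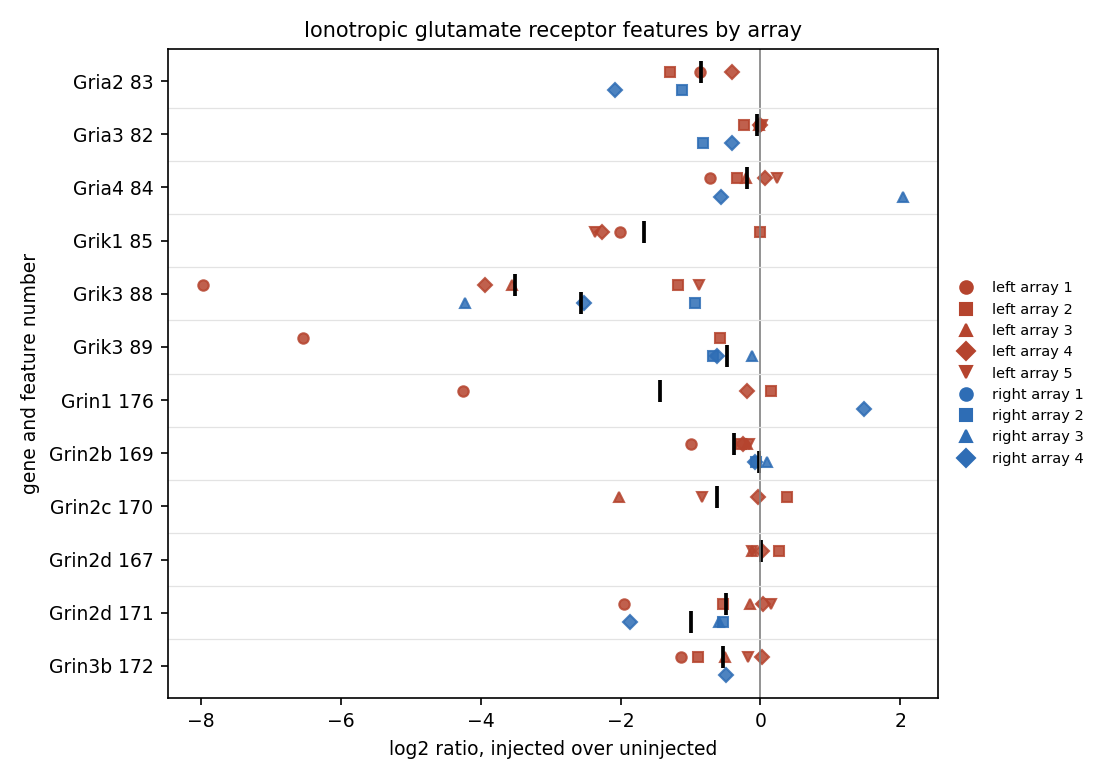
Log2 ratio of injected over uninjected rats (x axis) for the ionotropic glutamate receptor features measured on at least 3 arrays of a side (y axis), with red markers for left arrays, blue for right arrays, shapes for the array number and a black bar for the mean of a side with at least 3 measured arrays. Grik3 feature 88 lies below 0 on every array that measured it, down to -7.97 on left array 1, and Grik1 feature 85 has left points only.

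Receptors for the inhibitory transmitter GABA showed no separation of the sides. Of 4 tested features, 3 averaged higher on the left and 1 lower, with a median difference of 0.13, and with other scalings of the arrays 2 and 2. Gabrq (feature 59), the theta subunit of the GABA-A receptor channel, was measured on every array, at 0.64, 0.37, 0.51, -0.14 and 0.60 on left arrays 1 to 5 and 1.41, 0.21, 0.049 and 0.34 on right arrays 1 to 4. It lay above 0 on 8 of 9 arrays, with the highest ratio on a right array. The difference was -0.11 (95% interval -0.82 to 0.61), and it was -0.17 without left array 1 and turned to 0.19 without right array 1, the array with 7 measured features. Gabbr1 (feature 76), a subunit of the GABA-B receptor, lay below 0 on all 9 arrays, at -2.54, -1.02, -0.31, -0.44 and -0.77 on left arrays 1 to 5 and -0.07, -0.27, -2.52 and -2.23 on right arrays 1 to 4. The lowest ratios came from left array 1 and right arrays 3 and 4, so the spread within each side exceeded the difference of 0.26 (95% interval -1.24 to 1.76). Gabrr1 (feature 57), the rho 1 subunit, and Gabre (feature 74), the epsilon subunit, differed by 0.52 and 0.011. The Gabre difference turned below 0 without left array 1 and with other scalings of the arrays (-0.017 to -0.097). For Gabrr1 the lowest ratios were those of right array 2, at -2.39, and left array 1, at -1.40, and the others lay between -0.22 and 0.083. Without left array 1 the Gabrr1 difference was 0.80 and that of Gabbr1 feature 76 was 0.64.

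Opioid and tachykinin features, which encode the peptides and receptors that dampen or carry pain signals, had differences on both sides of 0. Oprm1 (feature 154), the mu opioid receptor through which morphine acts, had -1.23, -0.41, -0.14, -0.86 and -3.32 on left arrays 1 to 5. The right arrays gave -2.17, -0.41 and 0.09 on right arrays 2 to 4, within nearly the same range, so the sides overlapped. Penk (feature 194), the enkephalin precursor, was measured at -1.54, 0.51, 0.40 and -0.59 on left arrays 1, 2, 3 and 5 and at 0.012, -1.04 and -0.65 on right arrays 2 to 4. Its lowest and its highest ratio were both left ones. Tac1 (feature 55), the substance P precursor, had 1.60, -0.16 and -0.17 on left arrays 1, 2 and 4, beside 0.20, 2.33 and 0.36 on right arrays 2 to 4. Here 1 array on each side stood far above the others. The Oprm1 difference changed sign without left array 5 (0.17), the Penk difference, 0.66 without left array 1, did so without left array 2 (-0.020), and the Tac1 difference kept its sign under every alternative in which it could be computed.

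Neurotrophin features, of genes that support sensory neurons, averaged lower on the left in 2 of 2. Ngfr (feature 166), the low-affinity receptor that binds all neurotrophins, was at 1.46, 0.047, 0.012, 0.01 and 0.64 on left arrays 1 to 5 and at -0.019, 3.36 and 0.091 on right arrays 2 to 4. Right array 3 lay far above the other arrays, the remaining right ratios overlapped with the left ones, and the difference was -0.71 (95% interval -2.57 to 1.14). Ntf4 (feature 160), neurotrophin 4, was measured at 0.12, -0.70, 0.11 and -1.52 on left arrays 1 to 4 and -0.061, -0.54, -0.33 and -0.18 on right arrays 1 to 4, with all right ratios inside the left range. Its difference of -0.22 became 0.12 without left array 4 and -0.43 without left array 1.

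Somatostatin, a peptide that inhibits release of other transmitters, gave the most precise comparison. Sstr3 (feature 202), a somatostatin receptor, was measured on every array, at 0.056, 0.043, 0.075, -0.009 and 0.023 on left arrays 1 to 5 and 0.005, 0.15, 0.26 and -0.003 on right arrays 1 to 4. All ratios lay near 0, the sides overlapped, and the difference was -0.064, with the narrowest interval of all (-0.40 to 0.28). Sstr2 (feature 213), another receptor of the family, had 1.48, 0.31, -0.47, 0.053 and 0.63 on left arrays 1 to 5, and -0.11, 0.09, 0.26 and 0.11 on right arrays 1 to 4. The right ratios lay within the left range, and its difference went from 0.31 to 0.042 without left array 1. The feature named SSTR (214) differed by 0.20 and the precursor Sst (feature 210) by 0.18. Left array 1 was the highest of all arrays for both, at 0.91 and 1.08, and without it the SSTR difference was 0.01 and the Sst difference -0.014.

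Amine receptors and the remaining peptide receptor had differences from -0.13 to 0.23. The serotonin receptor Htr1d (feature 8) differed by -0.10 (95% interval -0.58 to 0.37), or -0.18 without left array 1, and the histamine receptor Hrh3 (feature 95) by 0.065 (95% interval -0.50 to 0.63). The alpha-2C adrenergic receptor Adra2c (feature 31) differed by 0.23 (95% interval -1.59 to 2.05), with the highest ratio on left array 1, at 3.20, and the difference turned to -0.38 without that array, to -0.19 with array weights and to -0.29 with equal scaling. Vipr2 (feature 227), a receptor of vasoactive intestinal peptide, was at 3.42 on left array 2 and 1.33 on right array 4, with the other ratios between -1.12 and 0.07, and it differed by -0.13 (95% interval -2.51 to 2.25). The signs of the Hrh3 and Vipr2 differences turned when single left arrays were left out (-0.0089 and 0.20), that of Vipr2 was 0.015 without left array 1 and that of Hrh3 0.011, and the sign of Hrh3 also turned with quantile normalization (-0.023).

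The remaining 5 tested features carried no gene name. Feature 142 was measured on all 9 arrays, at -0.36, -0.25, -0.19, -0.02 and -0.032 on left arrays 1 to 5 and 0.25, -0.30, 0.088 and 0.04 on right arrays 1 to 4. The left ratios were all below 0 and 3 of 4 right ratios above, but right array 2 lay among the left ones. Its difference was -0.19 (95% interval -0.60 to 0.22), one of the narrower intervals. Feature 144 was below 0 on all 5 left arrays and differed by -0.25, feature 221 differed by 0.46 and feature 71 by 0.24, or 0.55 without left array 1. Feature 199 differed by 0.30, of which left array 1, at 1.14, was the largest part, since the other ratios lay between -0.17 and 0.12, and it was 0.074 without that array.

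Many features had ratios on 1 side only, most of them on the left. Of the 228 features, 109 were measured on at least 1 array of each side, 75 on left arrays only, 5 on right arrays only and 39 on neither. Of the 75, 40 were measured on 1 left array and 23 on 2, and left array 2, which measured the most features, held 55 of these 63. The right-only features each rested on 1 array: Bdnf (feature 44, a neurotrophin), Il17b (126) and Il3 (131), both cytokines, Grm7 (153, a metabotropic glutamate receptor) and an unnamed feature (41). A Fisher's exact test of measured against not measured arrays called 0 of 184 features after adjustment (0%, smallest adjusted p = 0.584). The smallest p this test can give with 5 and 4 arrays, 0.00794, was reached by 2 features. A call after adjustment would have needed many features at that p, so the 0 calls were nearly fixed by the number of arrays. An unadjusted p below 0.05 was reached by 15 (8.15%), all measured on more left arrays, which goes with the larger number of measured features on left arrays. Leaving out any single array gave 2 to 8, with 2 without right array 1. An unmeasured feature gives no level, so these counts do not say that a gene was expressed on 1 side.

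The 12 features measured on at least 3 left arrays and no right array came from several families. Pdyn (feature 195), the precursor of the dynorphin opioid peptides, and Polr2m (feature 91), annotated as a subunit of RNA polymerase II, were measured on all 5 left arrays (Fisher's exact p = 0.00794 each, adjusted 0.584). Pdyn had -0.43, 3.04, 1.00, 0.44 and 0.61 on left arrays 1 to 5, a mean of 0.93 ± 1.29 (SD, n = 5), above 0 on 4 of 5 arrays. Polr2m had -0.92, -2.16, -1.60, 0.12 and 0.043 on left arrays 1 to 5, with 3 arrays well below 0 and 2 just above. Among glutamate receptor channels, the kainate subunit Grik1 (feature 85) had -2.01, -0.007, -2.27 and -2.36 on left arrays 1, 2, 4 and 5. Left array 2 alone lay near 0, and the other 3 lay close together. The NMDA subunits Grin2d (feature 167) and Grin2c (feature 170) were measured on left arrays 2 to 5. Grin2d stayed between -0.12 and 0.26, while Grin2c ranged from -2.02 to 0.38. Gabra2 (feature 65), a GABA-A receptor subunit, had 1.00, 0.82, -3.08 and 0.011 on left arrays 1, 2, 4 and 5, on both sides of 0. Slc1a6 (feature 206), a glutamate transporter, was at 0.16, 0.85, 0.33 and -0.16 on left arrays 1 to 4, above 0 on 3 of 4.

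The other 5 were measured on 3 left arrays. The adenosine receptors Adora2b (feature 25) and Adora3 (feature 26) had -0.57, -2.48 and 0.24 on left arrays 1, 2 and 4 and 0.62, 0.23 and -0.10 on left arrays 1, 2 and 4, respectively, with signs that differed among the arrays. Gabbr1 feature 35 had 1.07, -0.78 and 0.78 on left arrays 1, 2 and 4. Klk1b3 (feature 162), a kallikrein-family peptidase, had 0.11, 0.005 and 1.30 on left arrays 2 to 4, with array 4 far above the other two. The unnamed feature 145 was at -1.48, -4.84 and -5.14 on left arrays 1, 2 and 5, below 0 on all 3. A further 8 features were measured on all 5 left arrays and on a single right array (Fisher's exact p = 0.0476 each). They were Adora2a (23), Gabre (60), Gabrd (73), Tacr3 (156), Grin3b (172), Penk (196) and the unnamed 4 and 205. The single right ratio came from array 4 in 6 of them and from array 2 in the others. As a share of all possible values, opioid features were measured in 61.7% on the left and 25% on the right, GABA receptors in 60% and 31.8%, and cytokine receptors in 28% and 17.5%. Over all features the shares were 45.8% and 23.8%.

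Each side was then set against uninjected rats by testing its mean ratio against 0. The injected and the uninjected rat kept their own dyes on every array, so an effect of the dye and of the injection cannot be told apart in this comparison. On the left, 92 features were measured on at least 3 arrays and 0 passed by limma (0%; smallest adjusted p = 0.487). An unadjusted p below 0.05 was reached by 9 (9.78%), of which 7 lay below 0 (7.61% of the 92) and 2 above (2.17%). That number was 4 without left array 1, 2 or 5, 5 without array 4, 6 without array 3 or with equal scaling, and 16 with all 6 groups in 1 fit. Of the 92 means 57 were above 0 (62%) and 35 below (38%), with a median of 0.083. Ionotropic glutamate receptors lay mostly the other way, with 10 of 11 means below 0 (11 of 11 with other scalings of the arrays) and a median of -0.54. With left array 1 left out, 8 of 9 were below 0 and the median was -0.22. The 3 metabotropic glutamate receptors tested, Grm2 (feature 147), Grm3 (148) and Grm4 (149), were below 0 as well, at -1.19 ± 1.10 (SD, n = 3), -0.23 ± 0.30 (SD, n = 4) and -1.19 ± 1.40 (SD, n = 4).

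Of the 9 features with an unadjusted p below 0.05, 4 were ionotropic glutamate receptors, and all of these lay below 0. Grik3 feature 88, with the ratios given above, averaged -3.50 ± 2.85 (SD, n = 5) and was below 0 on 5 of 5 arrays. Grik1 feature 85 averaged -1.66 ± 1.11 (SD, n = 4) and was below 0 on 4 of 4. Without left array 2, whose ratio was -0.007, Grik1 feature 85 averaged -2.21 and was the only feature of 70 that passed (limma adjusted p = 0.0281). The second Grik1 feature (86) lay the other way, at 0.46 on left array 2 and at 0.56 and 2.03 on right arrays 2 and 4. Gria2 (feature 83), the AMPA receptor subunit that limits calcium entry, had -0.86, -1.29 and -0.40 on left arrays 1, 2 and 4, a mean of -0.85 ± 0.44 (SD, n = 3). The right arrays that measured it were lower or similar, at -1.13 and -2.08 on right arrays 2 and 4. The second Gria2 feature (81) was measured on left array 2 only, at 0.17. Grin3b (feature 172), an NMDA subunit, had -1.14, -0.89, -0.51, 0.024 and -0.18 on left arrays 1 to 5, a mean of -0.54 ± 0.48 (SD, n = 5), with 4 of 5 arrays below 0. Grin2b, named above, averaged -0.38 ± 0.34 (SD, n = 5) and was below 0 on 5 of 5 arrays.

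The other 5 of the 9 were 2 GABA receptor subunits, a peptide receptor and 2 unnamed features. Gabbr1 feature 76 averaged -1.01 ± 0.90 (SD, n = 5) and Gabrq feature 59 0.40 ± 0.32 (SD, n = 5), in opposite directions. Cckbr (feature 51), a receptor of cholecystokinin, a peptide known to oppose opioid pain relief, had 1.27, 1.19, -0.11, 0.83 and 0.16 on left arrays 1 to 5, above 0 on 4 of 5. The unnamed feature 181 averaged -0.48 ± 0.29 (SD, n = 5), below 0 on 5 of 5 arrays and with the smallest p of all (0.0165 by limma). The unnamed feature 145 averaged -3.82 ± 2.04 (SD, n = 3). In the GABA receptor list as a whole 9 of 13 means were above 0 (8 or 9 by scaling, median 0.21), but without left array 1 only 4 of 10 were (median -0.021).

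Among the other lists on the left, several had all their tested means above 0, and the same array carried large parts of them. The cytokine receptors were above 0 in 5 of 5, or 4 of 5 with other scalings of the arrays (median 0.36), against a median of 0.026 over the 4 that could be tested without left array 1. Il5ra (feature 109), an interleukin 5 receptor subunit, showed this most plainly, at 3.77, 0.13, -0.082 and -0.008 on left arrays 1, 2, 4 and 5. The adrenergic receptor features were above 0 in 4 of 4 (median 0.84, and 0.16 without that array). Adrb3 (feature 42), a beta adrenergic receptor, had 5.32, 0.29, 0.003, -0.003 and 0.44 on left arrays 1 to 5, so that 1 array held nearly the whole mean. The tachykinin features were above 0 in 4 of 4, with a median of 0.45, and in 3 of 3 without left array 1, with a median of 0.13. Tacr3 (feature 156), the neurokinin B receptor, was at 5.47 on that array and between 0.008 and 0.27 on the others. The second Tac1 feature (79) had 0.16, 1.52, 0.078 and 0.12 on left arrays 1 to 4, all above 0, with left array 2 apart from the rest. Tacr2 (feature 219), the receptor for neurokinin A, averaged 0.32 ± 0.54 (SD, n = 5).

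The cytokines were above 0 in 3 of 3 tested means, with a median of 1.05. Without left array 1 both that could be tested were above 0 (median 0.56), and without left array 4 there was 1 above and 1 below (median 0.22). Beside Il10 these were Il13 (feature 121), at 2.73, -0.006, -0.005, 2.56 and -0.004 on left arrays 1 to 5, and Il1b (feature 117), at 0.14, -0.93, 2.33 and 0.076 on left arrays 1, 3, 4 and 5. Il13 was high on 2 arrays and next to 0 on the other 3, while Il1b lay on both sides of 0. Opioid features went both ways, with 4 of 6 below 0 (median -0.28), or 3 of 6 without left array 1 (median -0.13). Pomc (feature 192), the precursor of beta-endorphin, averaged -0.57 ± 0.76 (SD, n = 4), and Penk feature 196 averaged -0.26 ± 0.38 (SD, n = 5). Pomc feature 191 averaged 0.048 ± 0.044 (SD, n = 4), above 0 on 4 of 4 arrays. Pomc feature 198 was at 1.32 and 0.004 on left arrays 2 and 3. Serotonin features were above 0 in 4 of 6 (3 to 5 by scaling). Among them the receptor Htr2c (feature 14) averaged 0.68 ± 0.90 (SD, n = 5) and the receptor Htr4 (feature 17) 0.38 ± 0.63 (SD, n = 5). The neurotensin precursor Nts (feature 184) averaged 1.92 ± 2.72 (SD, n = 3), with 5.05 on left array 2. Amino acid synthesis and transport features were above 0 in 3 of 3. They were Slc1a6, the GABA-synthesising enzyme Gad2 (feature 77), at 0.31 ± 0.57 (SD, n = 4), and the GABA transporter Slc6a13 (feature 208), at 0.0045 ± 0.036 (SD, n = 4), whose sign turned with median centring (-0.0063). No list had a feature that passed.

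On the right, 31 features were measured on at least 3 arrays and 0 passed by limma (0%; smallest adjusted p = 0.372). The mean was above 0 in 13 (41.9%) and below in 18 (58.1%), with a median of -0.085. An unadjusted p below 0.05 was reached by 1 feature (3.23%), Grik3 feature 88, which averaged -2.56 ± 1.64 (SD, n = 3) and was below 0 on 3 of 3 arrays. Over the alternatives the number below 0.05 ran from 0, among others with quantile normalization and without right array 3 or 4, to 5 with all 6 groups in 1 fit. The second Grik3 feature (89) was below 0 too, at -0.68, -0.12 and -0.62 on right arrays 2 to 4. On the left it was measured at -6.55 and -0.58 on left arrays 1 and 2, below 0 on both arrays. All 4 ionotropic glutamate receptor means tested on the right were below 0 (median -0.73), as were 10 of 11 on the left. Of these, Grin2d feature 171 averaged -0.996 ± 0.75 (SD, n = 3) and Grin2b -0.016 ± 0.095 (SD, n = 3).

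Other right means near the top by p were Ntf4, at -0.28 ± 0.21 (SD, n = 4), Gabbr1 feature 76, at -1.27 ± 1.28 (SD, n = 4), and Penk feature 194, at -0.56 ± 0.53 (SD, n = 3). Ntsr1 (feature 158), a neurotensin receptor, had 0.97, 1.37 and 0.16 on right arrays 2 to 4, all above 0, and 4.37 on left array 2. Il9r averaged -0.41 ± 0.39 (SD, n = 4). Without right array 2, its only ratio above 0, the mean was -0.59 and Il9r was the only feature of 7 that passed (limma adjusted p = 0.0407). Of the 5 cytokine receptors with a left mean above 0, the 3 with at least 3 right arrays had right means below 0 (median -0.41). The other 2, Il5ra and Il10ra (feature 102), were measured on 2 right arrays and had right means of 0.15 and 0.022. The difference between the sides is the left minus right test given above, in which 0 of 29 features passed.

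Features of the same gene did not always give the same direction. Of the 12 genes with several features measured on at least 3 left arrays, 6 had left means on both sides of 0. Gabbr1, with 8 features, showed the widest choice. Feature 76 lay below 0 on all 9 arrays, while feature 36 stayed near 0, at -0.056, -0.16, 0.095 and 0.09 on left arrays 2 to 5 and 0.034 and 0.021 on right arrays 2 and 4. Feature 220 was at 4.46, -0.47 and -0.50 on left arrays 1, 2 and 4 and at -0.95 on right array 4, so its mean of 1.17 ± 2.85 (SD, n = 3) came from left array 1 alone. Features 35 and 38 averaged 0.36 ± 0.99 (SD, n = 3) and 0.073 ± 0.39 (SD, n = 3), and the latter was at 0.79 on its single right array. Feature 37 was measured on 2 left arrays, at 1.68 and 0.84, and on right array 4, at 1.59, above 0 each time. Feature 75 was measured on left array 4 only, at -0.16, and feature 34 on no array. For Adora2a, an adenosine receptor, feature 23 averaged -0.28 ± 0.58 (SD, n = 5) and feature 24 1.63 ± 2.98 (SD, n = 4). For Grin2d, features 171 and 167 averaged -0.49 ± 0.85 (SD, n = 5) and 0.009 ± 0.18 (SD, n = 4). Penk showed the same on the right, where feature 196 stood at 2.87 on array 4 and feature 194 at -0.65 on that array. A direction given for any of these genes thus holds for the feature named, not for the gene.

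**Figure D5:**
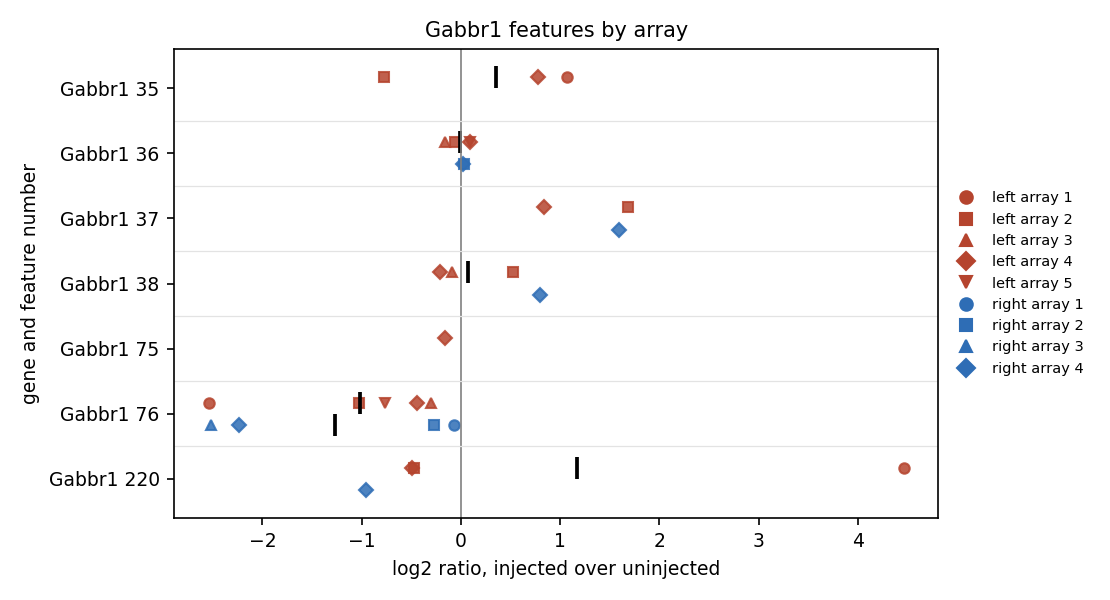
Log2 ratio of injected over uninjected rats (x axis) for the 7 measured features of Gabbr1 (y axis), with red markers for left arrays, blue for right arrays, shapes for the array number and a black bar for the mean of a side with at least 3 measured arrays. Feature 76 lies below 0 on all 9 arrays, feature 36 stays between -0.16 and 0.095, and feature 220 reaches 4.46 on left array 1 but lies below 0 on its other arrays.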

How the data were processed

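Dual-colour custom oligonucleotide arrays were made from total RNA, extracted with TRIzol and reverse transcribed (5 µg per sample) for a 3DNA detection kit, per the labels' protocols. Channel 1 (Alexa 647) held the injected and channel 2 (Alexa 546) the uninjected rat on all arrays, so the dyes were never swapped. The values used were the deposited log2 ratios, as the authors made them. Scanning, background correction and normalization are not given in the sources used here, and neither log base nor direction is stated in the table. Base 2 was inferred from the range of the values (-13.245 to 9.794 on these arrays). An exact 0, found in 1313 of 2052 dorsal horn values (64%) while a size of 0.001 occurred 6 times, was treated as a missing value. Ratios within 0.01 of 0 were kept, and made up 3.57% (left array 2) to 15.3% (left array 3) of the measured ratios of an array. The number of arrays limits the precision. Array medians lay between -0.061 and 0.0605, and arrays of a side shared 0 identical measured values.

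Features measured on at least 3 arrays per side were tested two-sided with limma 3.58.1 (lmFit and eBayes, R 4.3.3), with Benjamini-Hochberg adjustment over all features tested and a threshold of 0.05, and by exact permutation (SciPy 1.17.1). Each side alone was tested against 0. Numbers of measured features were compared by exact permutation, and measured arrays per feature by Fisher's exact test. The limma script was tested on simulated data. Of the 228 features 202 had 1 gene symbol in the platform annotation and 26 none; 191 symbols matched RefSeq's rat gene table and 11 kept the annotation's name.

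Named features were, between the sides, the 12 with the smallest p, every tested feature of the opioid, tachykinin, cytokine and cytokine receptor lists and any whose sides did not overlap. Against uninjected rats they were the 8 with the smallest p. Also named were features on at least 3 arrays of 1 side and none of the other or with an unadjusted Fisher p below 0.05, up to 4 examples per list by p, and the other features of these genes. Features 34, 37 and 75 of Gabbr1, feature 89 of Grik3 on the left and the right-only features were added for completeness. So were feature 86 of Grik1, feature 81 of Gria2 and feature 198 of Pomc. Members, lists and rules were chosen with earlier results of these data known.

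Alternatives were zeros kept as 0, at least 2 measured arrays per side, features on every array, median centring, quantile normalization, array weights, robust variance, all 6 groups of the series in 1 fit, leaving out arrays with fewer than 40 features or each array in turn, and the replicate number as a block. Scaling every array to the same median absolute value was added after seeing the data.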

Additional observations from a re-analysis of the deposited data

Results flagged for a closer look

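Groups of 4 or 5 arrays of a side were tested, mainly those of the features named in the text. In 16 of 68 groups 1 array lay so far from the nearest other that Dixon's criterion marked it. Chance marks about 1 in 20 such groups. Left array 1 was the array marked in 11 of the 16, left array 2 in 4 and left array 3 in 1. The right side gave none, but only 7 features were measured on all 4 right arrays. Right ratios of features on fewer arrays were not tested and could not be marked.

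Left array 1 lay above the other left arrays in 9 of its features. It stood at 5.474 for the neurokinin B receptor Tacr3 (feature 156; others 0.008 to 0.27), 5.32 for the beta adrenergic receptor Adrb3 (feature 42; others -0.003 to 0.44), and 3.774 for Il5ra (feature 109; others -0.082 to 0.13). It stood at 3.2 for the adrenergic receptor Adra2c (feature 31; others -0.081 to 0.29), 1.767 for the GABA-A delta subunit Gabrd (feature 73; others -0.45 to 0.069) and 1.476 for the serotonin receptor Htr4 (feature 17; others -0.068 to 0.30). Tacr2 (feature 219; others -0.13 to 0.26) was at 1.23, the unnamed feature 199 at 1.14 (others -0.17 to 0.12) and SSTR (feature 214; others -0.13 to 0.098) at 0.914. It lay below the others for Gabrr1 (feature 57), at -1.402 (others -0.22 to 0.083), and for Grin2b (feature 169), at -0.986 (others -0.28 to -0.17).

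Left array 2 was at 3.415 for Vipr2 (feature 227; others -1.12 to 0.005), 1.52 for Tac1 feature 79 (others 0.078 to 0.16), 0.492 for the unnamed feature 205 (others -0.048 to 0.048) and -0.007 for Grik1 (feature 85; others -2.36 to -2.01). Left array 3 was at 2.369 for the unnamed feature 4 (others -0.21 to 0.38). The cause of these values was not tested.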

How the results depend on the processing

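Between the sides 0 features passed under all 21 alternatives (smallest adjusted p by limma or exact permutation from 0.274 to 0.931, at most 2 unadjusted p below 0.05). No paired design is stated. Deviations of same-numbered left and right arrays correlated at r = -0.78, 0.22, -0.21 and -0.061 for numbers 1 to 4, the first over 7 features. Other-numbered pairs ran from -0.48 (29 features) to 0.71 (7 features), so these values cannot tell paired from unpaired arrays. With the replicate number as a block 0 passed by limma (smallest adjusted p = 0.663, 1 unadjusted p below 0.05). Over the 4 same-numbered pairs, left arrays measured 60 more features on average (exact permutation of signs, p = 0.125). That p is the smallest this test allows with 4 pairs, so it could not fall below 0.05. Leaving out 1 array at a time gave differences of 34.25 to 65.4 measured features. It gave 0 to 1 passing features on the left (1 without left array 2, Grik1 feature 85 at -2.21) and 0 to 1 on the right (1 without right array 2, Il9r at -0.59). Fisher's test called 0 throughout, within the limit that the number of arrays sets.

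Of 1626 alternative values of 123 named values (a feature in a comparison), 1567 kept direction and call, 57 changed sign, in 24 of the 123, and 2 crossed the threshold. Part of the 1567 could not change direction. Robust variance and all 6 groups in 1 fit leave an estimate as it is, as does leaving out an array that did not measure the feature. No named value passed in the main setting, so a call could only be gained. Leaving out single arrays gave these ranges of left minus right differences: Gabrq -0.26 to 0.19, Gabre feature 74 -0.17 to 0.13, Gabbr1 feature 76 -0.16 to 0.66, Grik3 feature 88 -1.60 to 0.17, Oprm1 -0.63 to 0.17, Ntf4 -0.43 to 0.12, Penk feature 194 -0.020 to 0.66, Adra2c -0.38 to 0.44, Hrh3 -0.0089 to 0.18, Sst -0.014 to 0.28 and Vipr2 -0.93 to 0.20. For left means the ranges were: Gabbr1 feature 36 -0.041 to 0.043, Gabra2 -0.75 to 0.61, Gabrd -0.11 to 0.44, Gabre feature 74 -0.080 to 0.22, Grin2d feature 167 -0.076 to 0.054, Penk feature 194 -0.58 to 0.11, unnamed feature 205 -0.018 to 0.12, Htr1d -0.018 to 0.090, Il1b -0.24 to 0.85, Slc6a13 -0.0047 to 0.022 and SSTR -0.022 to 0.24.

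Other settings turned these signs. Between the sides, Gabre feature 74 was -0.017 (median centring), -0.097 (quantile), -0.15 (array weights), -0.073 (equal median size) and -0.22 (block). Adra2c was -0.19 (weights), -0.29 (equal median size) and -0.39 (block). The block gave 0.36 for Oprm1, -0.13 for Sst and 0.41 for Vipr2, quantile normalization -0.023 for Hrh3, and leaving out arrays under 40 features 0.19 for Gabrq. On the left, Grin2d feature 167 was -0.0018 (centring), -0.070 (quantile), -0.017 (weights) and -0.083 (equal median size). Il9r was -0.037, -0.0053 and -0.051 under the last 3 of these. Gabbr1 feature 38 was -0.059 (quantile) and -0.086 (equal median size), Gabbr1 feature 36 0.033 (quantile), Gabre feature 74 -0.019 (weights), Htr1d -0.0034 (weights) and -0.0044 (equal median size), SSTR -0.00023 (quantile) and -0.011 (equal median size) and Slc6a13 -0.0063 (centring). The cause of these changes was not tested. No left array measured fewer than 40 features, so that setting gave no left mean.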

Other observations

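Ratios of 3 receptor features lay next to 0 on every dorsal horn array that measured them; they were chosen after their values were seen. The serotonin receptor Htr2a (feature 11) lay between -0.001 and 0.009 on 6 arrays, Htr5a (feature 18) between -0.037 and 0.011 on 7, and the interleukin 10 receptor subunit Il10ra (feature 102) between -0.029 and 0.046 on 7. Their standard deviations over arrays were 0.0039, 0.016 and 0.026, while the median over the 61 features measured on at least 6 arrays was 0.58 and the highest 3.59. A second Htr2a feature (12) had -0.26, -0.21 and -1.32 on left arrays 2 to 4, and -3.15 on right array 4, so the same gene gave ratios next to 0 on 1 feature and ratios far from 0 on the other. The Il10ra ratios lay next to 0 on left array 1 (0.001), on which its ligand Il10 was at 4.82.

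The largest ratios on the right came from array 2. The metabotropic glutamate receptor Grm2 (feature 147) was at -13.245 there, against 0.048, -2.03 and -1.60 on left arrays 2, 4 and 5. Il13 (feature 121) was at 9.79 on that array and 0.041 on right array 4. Neither had 3 measured right arrays, so neither entered the left against right test. The neurotensin precursor Nts (feature 183) was at 5.90 on right array 4 and 1.47 on left array 2, while features 182 and 184 of that gene were at 0.072 and 0.96 on right array 4. These values rest on single arrays and have no replicate check.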
